A study of Mus musculus with 4 samples.

Results

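Cultured cells labelled as fibroblasts, from the prostates of irradiated mice, were compared with such cells from unirradiated mice, both labelled with phosphate-buffered saline (PBS). Members were all 14365 genes whose mean reached 1 CPM (reads of a gene scaled to the depth of its library) over the libraries, of 56748 genes in the table, whatever their difference. Bulk RNA-seq gave 1 library per group for 4 groups, labelled PBS, BuOE, PBS and radiation, and BuOE and radiation, and the comparison used the first and the third of them. The mice were male C57BL/6 (spelled CB57BL/6 under genotype) of 8 to 10 weeks without other alleles named. The PBS group is labelled with PBS only, and the irradiated PBS group with PBS and 37.5 Gy in all to the pelvis, delivered behind lead shielding in fractions of 7.5 Gy over 5 days at 1.2 Gy per minute. The labels state neither the time from radiation to harvest, nor the number of animals behind a library or whether they were pooled, nor whether animals or cultures received PBS. The cells were released from minced prostate with type I collagenase and grown in medium with serum, so the RNA is that of cultured cells and not of the irradiated tissue itself.

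Fibroblasts of the prostate stroma make the collagen, fibronectin and proteoglycans that surround its glands, and they signal to epithelium, vessels and nerves with secreted Wnt, BMP and IGF factors. Ionizing radiation breaks DNA, which acts through p53 on cell cycle arrest and death, and its late effect in many organs is fibrosis, an excess of matrix. The prostate is also densely innervated from the pelvic ganglia, whose noradrenergic and cholinergic neurons drive secretion and contraction of the gland.

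Each log2 ratio sets the irradiated PBS library over the PBS library on CPM scaled by TMM (trimmed mean of M values), with a prior count of 2, and the range after it is a 95% interval for counting error alone, exact binomial from both counts. With 1 library a side, no ratio has a replicate check and none was tested: the ratios compare 2 libraries, not 2 conditions. The totals were 29744664 reads in the PBS library, 35915448 in the irradiated PBS library, 28856043 in the BuOE library and 24996835 with BuOE and radiation. Over all genes the median ratio was 0.00, with 50.4% of genes above 0, the 5th percentile at -0.49 and the 95th at 1.08. At least 2-fold higher in the irradiated library were 807 genes (5.62%), and at least 2-fold lower were 146 (1.02%), together 953 (6.63%). Among the 9870 genes with a mean of 10 CPM or more these were 245 (2.48%) and 43 (0.436%), so most large ratios belonged to genes with few reads. Below a mean of 3 CPM, 15.4% of genes were 2-fold higher, against 1.39% of those with 100 CPM or more. Nearest to the 2-fold line at 10 CPM or more were Dchs1 (40.1 to 80.3 CPM) just inside it and Cilp (158 to 316 CPM) just outside it on the higher side, and Klhdc7a (29.2 to 14.5 CPM) inside and Igsf11 (38.9 to 19.8 CPM) outside on the lower side.

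**Figure D1:**
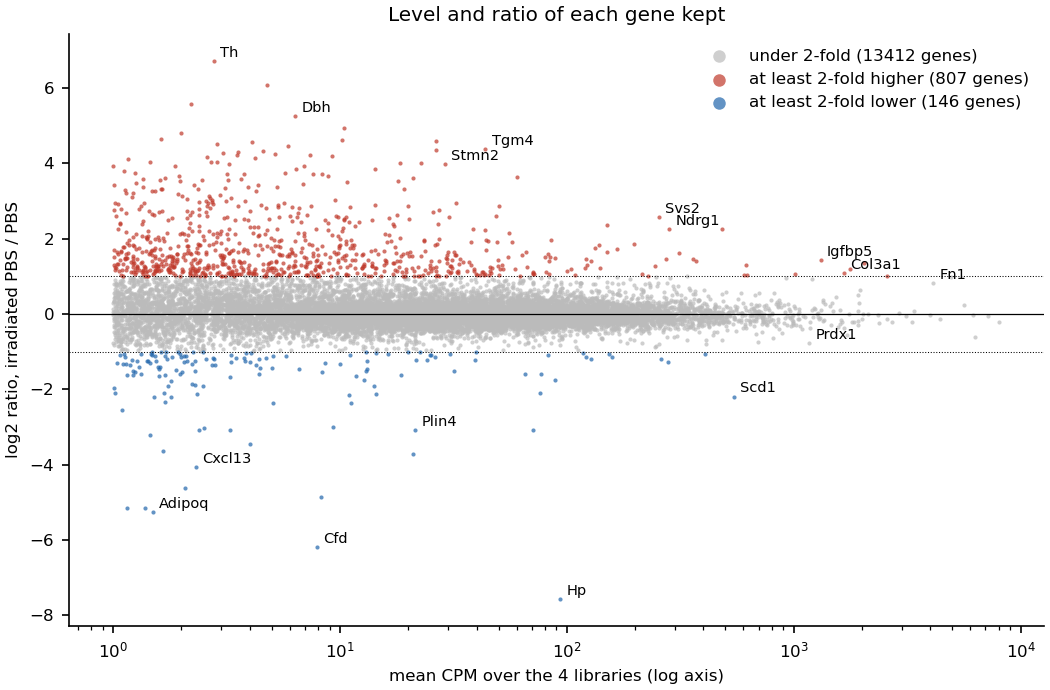
Log2 ratio of the irradiated PBS library to the PBS library (vertical) against the mean CPM over the 4 libraries (horizontal, log axis) for the 14365 genes kept, 1 point a gene, with dotted lines at 2-fold. The 807 genes above the upper line lie mostly at low levels, and Hp at -7.57 has the lowest ratio.

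Most of the 2-fold genes were genes in which the PBS library stood apart from the other 3, rather than the irradiated one. Of the 807 higher genes, the PBS library was the lowest of all 4 libraries in 724 (89.7%) and lay at least 2-fold below each of the other 3 in 465 (57.6%). The irradiated PBS library was the highest of the 4 in 189 (23.4%) and at least 2-fold above each of the others in 38 (4.71%). Of the 146 lower genes, the PBS library was the highest in 119 (81.5%) and 2-fold beyond the rest in 46 (31.5%), and the irradiated library was the lowest in 77 (52.7%) and 2-fold below the rest in 17 (11.6%). With a mean of 10 CPM or more, the PBS library was 2-fold below the rest in 154 of 245 higher genes and the irradiated library 2-fold above the rest in 3. For most of these genes the unirradiated BuOE library thus lay on the same side of the PBS library as the irradiated PBS library. The BuOE library received no radiation by its label. How near the BuOE and irradiated PBS libraries lay to each other is not given by these counts. As the PBS library is one side of every ratio, no ratio could be computed without it. The place among the 4 libraries is given beside many groups of genes, and for the others only the 2 compared libraries are given. Counted over pairs of libraries, the PBS and irradiated PBS pair had the fewest genes 2-fold apart, 953, against 1035 for the 2 BuOE libraries and 1860 for the unirradiated BuOE and PBS pair. The irradiated PBS and unirradiated BuOE pair also had 1035.

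**Figure D2:**
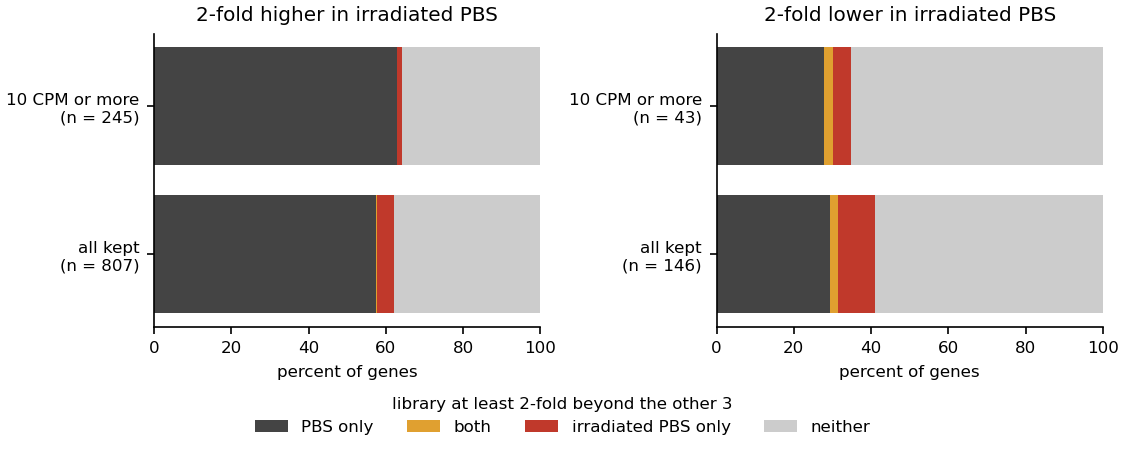
Percent of the 2-fold higher (left) and 2-fold lower (right) genes in which the PBS library, the irradiated PBS library, both or neither lay at least 2-fold beyond each of the other 3 libraries, for all genes kept and for those with a mean of 10 CPM or more. Dark bars, the genes set by the PBS library alone, take the largest share of the higher genes, and red bars, those of the irradiated library alone, the smaller one.

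Lists of nerve cell genes had some of the highest medians. Of 34 measured autonomic transmitter genes (10 more were under the filter), 23 were 2-fold higher and 2 lower, with a median of 2.57. That median rests on scarce genes: among members with a mean of 10 CPM or more it was 0.00 relative to all genes. Of 45 pan-neuronal genes, 31 were higher and 2 lower (median 1.73), and of 42 neuronal ion channel genes 20 were higher and none lower (median 0.92). Together with the Schwann cell list, 141 genes of these lists were measured and 84 of them (59.6%) were 2-fold higher, which makes 10.4% of all 807. The filter was a mean over the 4 libraries, so members nearly absent from the PBS library passed it through libraries where they were high. Members scarce in all 4 were left out, 19 of them in the channel list. These shares and medians therefore depend on the filter and can be raised by it.

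The noradrenergic genes led. Th, tyrosine hydroxylase and the first step of catecholamine synthesis, had no count in the PBS library and 7.02 CPM in the irradiated PBS library, which is at least 68.7-fold higher against a floor of 3 counts in the PBS library (0.102 CPM). The BuOE library held 3.76 CPM and the irradiated BuOE library 0.370 CPM, so the irradiated PBS library was the highest of the 4. Dbh, which turns dopamine into noradrenaline, stood at 0.204 CPM in the PBS library and 10.4 in the irradiated one (5.26, 4.53 to 7.12). Ddc, the decarboxylase between them, stood at 0.443 and 4.58 CPM (3.19, 2.56 to 4.31), the noradrenaline transporter gene Slc6a2 at 1.02 and 8.25 CPM (2.93, 2.47 to 3.61), and the vesicular monoamine transporter gene Slc18a2 at 0.204 and 2.95 CPM (3.47, 2.68 to 5.33). These 5 genes were thus at 1.02 CPM or less in the PBS library and between 2.95 and 10.4 CPM in the irradiated one. The BuOE library lay at 13.4 CPM for Dbh and 10.3 for Slc6a2, above the irradiated PBS library for both, and the irradiated BuOE library at 1.4 and 3.05.

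The regulator gene Phox2a and a pair of cholinergic transporter genes were likewise low in the PBS library and higher in the irradiated one. Phox2a, a transcription factor of autonomic neurons, had 2 counts in the PBS library and stood at 3.14 CPM in the irradiated one (4.57, 3.64 to 8.59). Slc18a3, the vesicular acetylcholine transporter, had 2 counts and 1.24 CPM (3.27, 2.24 to 7.27), with 15.7 CPM in the BuOE library. Slc5a7, the choline transporter, stood at 0.272 and 2.19 CPM (2.73, 1.96 to 4.27). Nos1, the neuronal nitric oxide synthase, stood at 3.58 CPM in the PBS library, 17 in the irradiated PBS library, 150.3 in the BuOE library and 3.09 in that with BuOE and radiation. The BuOE library was therefore far the highest for the nitrergic and cholinergic genes, and the irradiated PBS library was between it and the 2 low libraries. The members that were 2-fold lower were Calcb, a neuropeptide of sensory neurons (5.01 to 1.6 CPM, -1.61), and the nicotinic receptor gene Chrna7 (5.65 to 2.16 CPM, -1.36). Penk, which encodes enkephalins, had more reads than any of these and was under 2-fold (222 to 153 CPM, -0.54). The neuropeptide gene Vip, with a mean of 60.2 CPM over the libraries, was higher (2.62 to 33.2 CPM, 3.63, 3.33 to 4.01). It stood at 199 CPM in the BuOE library and 5.97 in that with BuOE and radiation.

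Among pan-neuronal genes, several of synaptic vesicles and their release had high ratios, and so had neuronal genes of the cytoskeleton. Prph, a neuronal intermediate filament gene, stood at 0.783 CPM in the PBS library and 20.6 in the irradiated one, 26.3-fold higher. Stmn2, a microtubule regulator gene, stood at 1.74 and 28.4 CPM (3.98, 3.62 to 4.47). The ratios of Prph and Stmn2 lay within the range of the vesicle genes that follow. Syt1, the calcium sensor of release, had no count in the PBS library and 4.46 CPM in the irradiated one, at least 43.7-fold higher. Cplx1, a partner of the release machinery, stood at 0.136 and 3.79 CPM (4.25, 3.41 to 6.69), Syn2, which tethers vesicles, at 0.443 and 9.21 CPM (4.19, 3.58 to 5.30), and the vesicle protein gene Syp at 0.783 and 9.66 CPM (3.52, 3.01 to 4.30). With the genes that had no count in the PBS library placed at their bound, the medians of both lists were as given, 2.57 and 1.73. The 2 members that were 2-fold lower were Nefm, a neurofilament gene, at 46.6 and 16.3 CPM (-1.52, -1.66 to -1.38), and the synaptic vesicle gene Sv2b at 4.5 and 1.54 CPM (-1.5, -2.02 to -1.08). Nefl, another neurofilament gene, stood at 25.8 and 13.3 CPM and was under 2-fold (-0.95, -1.12 to -0.79). Ncam1, the member with the most reads, had a ratio of -0.03. Of the channels, the sodium channel gene Scn9a stood at 0.375 and 6.32 CPM (3.85, 3.21 to 5.10) and the N-type calcium channel gene Cacna1b at 0.851 and 11.5 CPM (3.65, 3.17 to 4.40).

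Several receptors through which neurons take up survival signals were higher. Of 14 measured neurotrophic genes, 5 were 2-fold higher and none lower (median 0.49), and the 5 were all receptors or their subunits; the receptor gene Gfra1 stood at 54.4 and 36.5 CPM (-0.58). Ret, the signalling receptor for the GDNF family, stood at 14.4 and 55 CPM (1.92, 1.78 to 2.08), Gfra3 at 0.579 and 4.86 CPM (2.93), the neurotrophin receptor gene Ngfr at 25.2 and 76.5 CPM (1.60), and Ntrk3 at 1.6 and 4.07 CPM (1.31). Of the ligands, Gdnf stood at 7.49 and 14.4 CPM (0.93, 0.71 to 1.17). Schwann cell and glial genes were higher too: 11 of 21 were 2-fold higher and none lower (median 1.07), with the PBS library lowest of the 4 in all 11. Sox10, the transcription factor that defines the glial lineage, stood at 6.51 and 25.9 CPM (1.98, 1.77 to 2.23), and the adhesion gene Cdh19 at 4.6 and 26.9 CPM (2.53, 2.29 to 2.82). In bulk RNA, fewer cells of a type and less RNA per cell cannot be told apart, here and for every cell type below. The PBS library was 2-fold below each of the other 3 in 16 autonomic, 16 pan-neuronal, 10 channel and 8 glial genes, and the irradiated library 2-fold above each of the others in 2 autonomic genes, Tbx20 and Slc18a2, and in none of the other 3 lists.

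**Figure D3:**
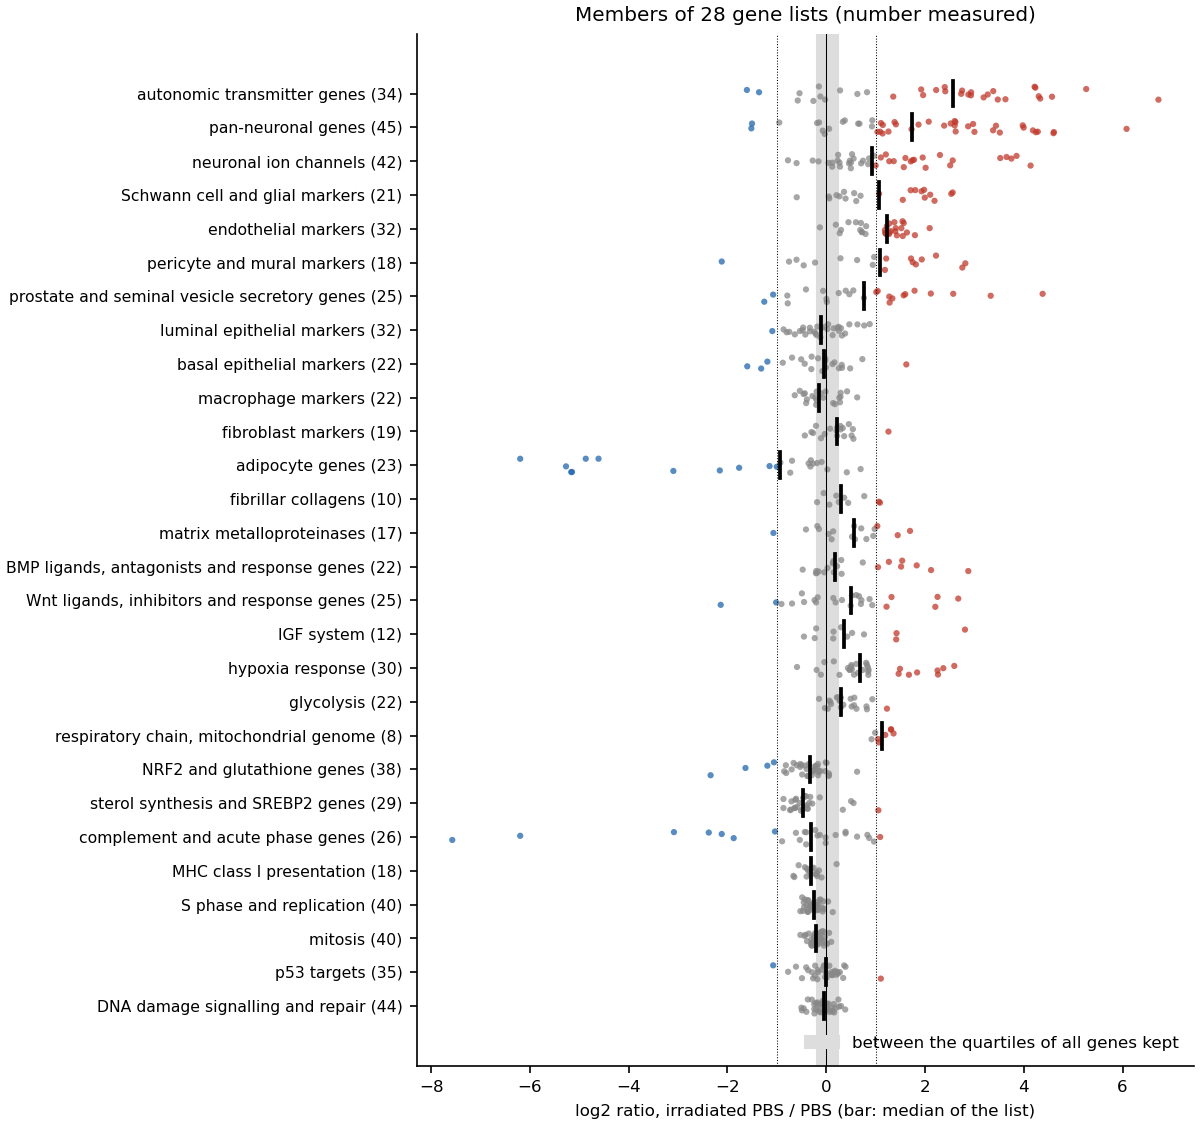
Log2 ratio of the irradiated PBS library to the PBS library for each measured member of selected gene lists (1 point a gene, red at least 2-fold higher, blue at least 2-fold lower, with random vertical scatter), the list median as a black bar and the range between the quartiles of all genes as a grey band from -0.18 to 0.24. Autonomic and pan-neuronal genes have the highest medians drawn (2.57 and 1.73) and adipocyte genes the lowest (-0.93). The medians of the replication and mitosis lists (-0.25 and -0.21) lie just below the grey band.

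Vascular genes were higher in the irradiated PBS library, and here that library was more often the highest of all 4. Of 32 endothelial markers, 20 were 2-fold higher and none lower (median 1.22), and the irradiated library was the highest of the 4 in 14 of the 20, where it was so in 23.4% of all higher genes. Pecam1, the junction protein CD31, stood at 61.4 CPM in the PBS library, 162 in the irradiated PBS library, 128 in the BuOE library and 162 in the irradiated BuOE library (1.4, 1.32 to 1.48). Plvap, a protein of fenestrated capillaries, stood at 34.2, 102, 63.7 and 53.5 CPM in the same order (1.57, 1.47 to 1.67), and the apelin receptor gene Aplnr at 11.9, 34.8, 18.4 and 9.3 (1.55, 1.38 to 1.73). For Plvap and Aplnr the irradiated PBS library was above each of the others, and for Pecam1 the irradiated libraries were level. The VEGF receptor gene Flt1 stood at 60.3 and 187 CPM (1.63, 1.56 to 1.71), Kdr, the main signalling receptor, at 67.1 and 102 CPM (0.60, 0.52 to 0.68), and Nos3, the endothelial nitric oxide synthase, at 5.28 and 22.8 CPM (2.09, 1.86 to 2.37). Cdh5, the endothelial cadherin and the member with the most reads, was under 2-fold at 196 and 237 CPM (0.27, 0.22 to 0.32), and the lymphatic genes Lyve1 (0.19) and Mmrn1 (-0.13) were near 0. Markers of the same cell type thus had unequal ratios, from 0.27 for Cdh5 to 2.09 for Nos3.

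Of 18 pericyte and mural markers, 9 were 2-fold higher and 1 lower (median 1.08). In all 9 the PBS library was the lowest of the 4, and in none was the irradiated PBS library the highest. Rgs5, a regulator of G protein signals in pericytes, stood at 12.1 and 46.4 CPM (1.94, 1.77 to 2.11), the adhesion gene Mcam at 40.6 and 137 CPM (1.75, 1.66 to 1.85), and Ndufa4l2, a mitochondrial protein of pericytes that hypoxia also induces, at 5.11 and 34.9 CPM (2.76, 2.53 to 3.03). Pdgfrb, which fibroblasts express as well, had a ratio of 0.29 (0.25 to 0.32), and Steap4 was the lower member (22.5 to 5.14 CPM, -2.12). Among the angiogenic ligands, Pgf, the placental growth factor, stood at 9.37 and 35.1 CPM (1.90, 1.72 to 2.10) and Vegfa at 539 and 798 CPM (0.56, 0.54 to 0.59), while Vegfc, the lymphatic growth factor, stood at 51.2 and 38.1 CPM (-0.43, -0.53 to -0.32).

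Targets of the hypoxia-inducible factors were higher in the irradiated PBS library, and for each of those past 2-fold the PBS library stood apart. When oxygen is scarce, these factors escape the prolyl hydroxylases that mark them for decay and switch on glycolysis, angiogenesis and acid handling. Of 30 hypoxia genes, 26 lay above the median of all genes and 8 were 2-fold higher, none lower (median 0.69). Their binding core, ACGTG on either strand, lay within the 250 bases before the start of 13 of the 25 hypoxia genes with a promoter in the RefSeq table (52%), against 21.4% of 10720 promoters of kept genes. The pair with the highest ratios that hold it are shown, 5′ to 3′ on the gene's strand, with the core or its reverse complement in capitals (RefSeq, GRCm38.p6; a match describes the letters and is not a site shown to be used). Car9 lies on the plus strand at chr4:43506776-43507025 and Egln3 on the minus strand at chr12:54203875-54204124.
Car9: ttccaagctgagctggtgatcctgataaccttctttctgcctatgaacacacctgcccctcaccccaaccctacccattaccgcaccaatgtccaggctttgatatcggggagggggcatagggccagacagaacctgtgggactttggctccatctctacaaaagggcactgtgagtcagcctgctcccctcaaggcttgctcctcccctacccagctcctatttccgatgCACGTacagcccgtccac
Egln3: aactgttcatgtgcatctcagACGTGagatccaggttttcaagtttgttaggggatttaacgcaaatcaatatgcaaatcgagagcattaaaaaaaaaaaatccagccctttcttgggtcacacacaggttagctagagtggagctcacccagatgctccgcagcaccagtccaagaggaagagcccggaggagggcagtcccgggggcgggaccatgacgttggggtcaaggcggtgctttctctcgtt
The core lies 18 bases before the start of Car9 and 229 before that of Egln3. Hypoxia genes whose promoter holds the core had a median ratio of 0.85, and those without it 0.47. This difference rests on 25 genes and was not tested. The share of promoters with the core describes a list made of targets of these factors, and not the libraries.

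The 8 genes shared their ends, with PBS lowest and irradiated BuOE highest. Car9, the membrane carbonic anhydrase that handles acid, stood at 5.28 CPM in the PBS library, 32.2 in the irradiated PBS library, 56.3 in the BuOE library and 101 in the irradiated BuOE library (2.59, 2.37 to 2.86). Egln3, a prolyl hydroxylase that is itself a target, stood at 26.9, 139.5, 170.2 and 262 CPM in the same order (2.37, 2.27 to 2.48), and Ndrg1 at 47.8, 229.6, 292 and 558 (2.26, 2.18 to 2.35). The irradiated PBS library and the unirradiated BuOE library lay between these ends. Ero1a, an oxidase of protein folding, stood at 72.3 and 345 CPM (2.25, 2.19 to 2.32), Adm, the vasodilator adrenomedullin, at 22.5 and 63.6 CPM (1.49, 1.37 to 1.62), and Bnip3, which directs mitochondria to autophagy, at 43.5 and 120.4 CPM (1.47, 1.38 to 1.56). The other 2 were Ankrd37 (1.84) and Selenbp1 (1.67). At the low end, Angptl4 (179.7 to 119 CPM, -0.59), which fatty acids also induce, and Plin2 (504 to 441 CPM, -0.19), which coats lipid droplets, were lower.

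Glycolysis genes differed less: 20 of 22 lay above the median of all genes, but 1, Aldoc, was 2-fold higher (median 0.30). The glucose transporter gene Slc2a3 stood at 22 and 42.2 CPM (0.93, 0.80 to 1.07), the lactate exporter gene Slc16a3 at 117 and 207 CPM (0.82, 0.76 to 0.87), and Pkm, the last enzyme, at 2779 and 2514 CPM (-0.14, -0.16 to -0.13). The measured respiratory chain genes split by genome. Of the 8 measured genes of the mitochondrial genome (5 more of the list were under the filter), 6 were 2-fold higher (median 1.13), all with the PBS library lowest. Of 45 nuclear genes none was 2-fold in either direction (median -0.08). The mitochondrial sum was 4086 CPM in the PBS library, 8712 in the irradiated PBS library, 6898 in the BuOE library and 27134 in that with BuOE and radiation. The 5 genes under the filter added almost nothing to it. As the handling of multiply mapped reads is not stated, whether the mitochondrial counts are complete is not known. The nuclear sum ran from 4240 to 4900 CPM over the 4 libraries, and its highest value was that of the PBS library.

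**Figure D4:**
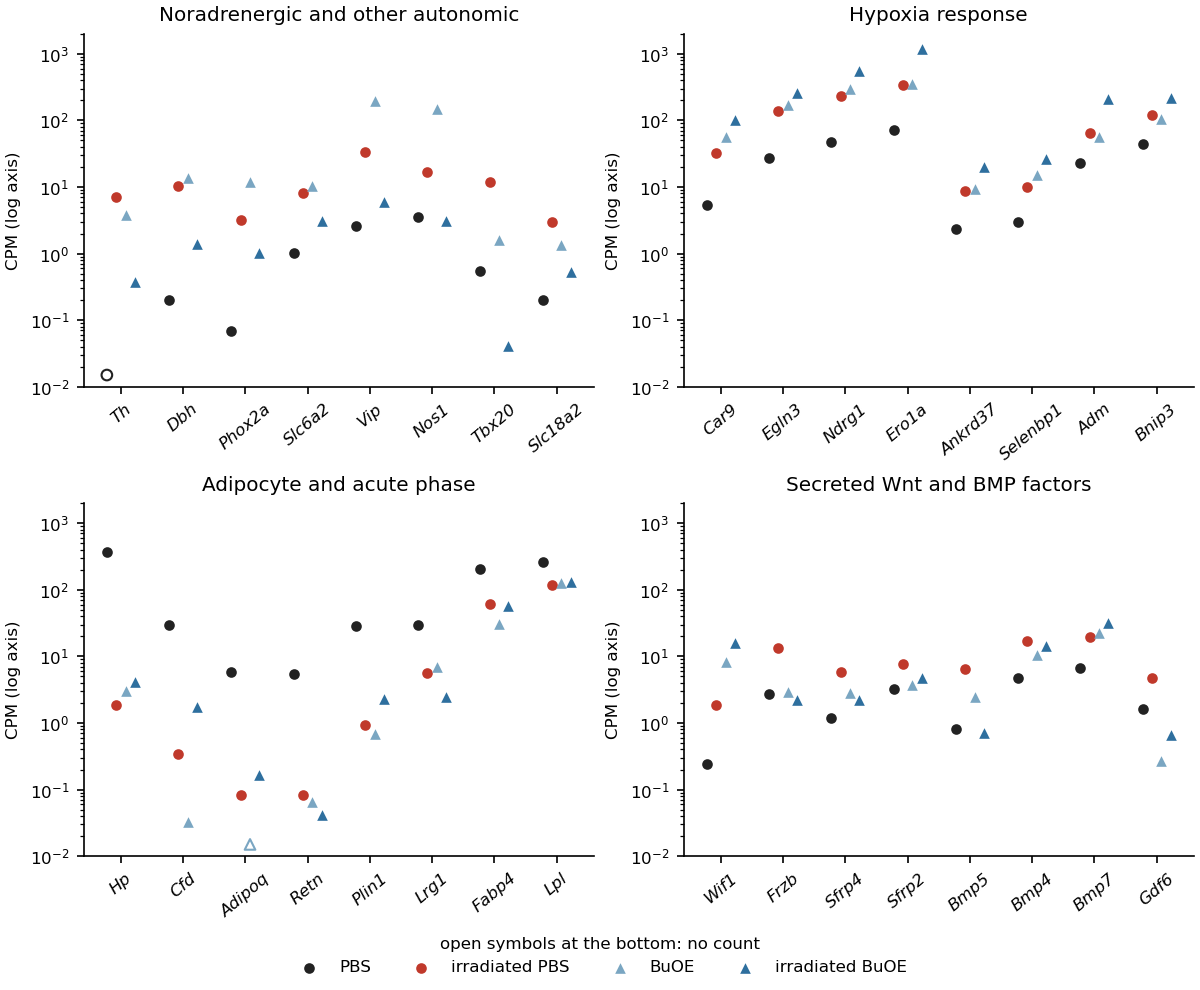
CPM (log axis) of chosen genes in each of the 4 libraries, 1 symbol a library, with an open symbol at the bottom for a library without a count. In the hypoxia panel the PBS library (black) lies below the other 3 for every gene, in the adipocyte and acute phase panel it lies above them, and in the Wnt and BMP panel the irradiated PBS library (red) is the highest for Frzb, Sfrp4, Sfrp2, Bmp5, Bmp4 and Gdf6.

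Most collagen genes lay above the median of all genes by amounts under 2-fold, with single members well past it, whereas the medians of the elastic fibre and collagen processing lists were not above 0. Of 10 fibrillar collagens, 8 lay above the median of all genes and 2 were 2-fold higher, Col3a1 and the scarce Col24a1 (median 0.31). Of 12 basement membrane and network collagens 1 was 2-fold higher (median 0.27), and of 9 collagen VI and fibril-associated collagens 2 were, Col14a1 and Col20a1 (median 0.57). The chains of collagen VI, a beaded microfibril around cells, differed from each other: Col6a1 stood at 164 and 321 CPM (0.97, 0.92 to 1.02) and Col6a2 at 134 and 254 CPM (0.93, 0.87 to 0.98), but Col6a3 at 820.4 and 922 CPM (0.17, 0.15 to 0.19). Fibrillar collagens summed to 6988 CPM in the PBS library and 9835 in the irradiated one, against 6538 and 4138 with BuOE alone and with BuOE and radiation, so this sum, unlike the hypoxia genes, was the highest in the irradiated PBS library. Laminins and linkers had no 2-fold member among 15 (median 0.18). Nid1, the nidogen with the most reads, stood at 1107 and 922 CPM (-0.26, -0.29 to -0.24) while its paralog Nid2 stood at 57.6 and 99.3 CPM (0.79, 0.70 to 0.87).

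Of 18 elastic fibre genes, Eln, elastin, was 2-fold higher and no other was 2-fold in either direction (median -0.09). Fbln2, which bridges elastic fibres and basement membrane, stood at 1394 and 1049 CPM (-0.41, -0.43 to -0.39) and the microfibril gene Fbn1 at 1113 and 1257 CPM (0.18, 0.16 to 0.20). Of 21 matricellular genes 4 were 2-fold higher and none lower (median 0.20). Thbs4, a thrombospondin of injured tissue, stood at 4.09 CPM in the PBS library, 22.1 in the irradiated PBS library, 5.44 in the BuOE library and 3.7 in the irradiated BuOE library (2.42, 2.16 to 2.73), so the irradiated PBS library alone was high. Thbs2 stood at 519, 1067, 548 and 349 CPM in the same order (1.04, 1.01 to 1.07), but Thbs1, with the most reads of the list, at 6852 and 6691 (-0.03, -0.04 to -0.03). Sparcl1 (262 to 533 CPM, 1.03) and Tgfbi (27 to 61.8 CPM, 1.19) were the others. Of 12 proteoglycan genes 1 was 2-fold higher, Srgn, the proteoglycan of secretory granules; Dcn, decorin, stood at 511 and 994 CPM (0.96, 0.93 to 0.99) and Bgn, biglycan, at 2106 and 2100.5 CPM, with an interval of -0.02 to 0.01.

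Collagen modifying genes went both ways, with 10 above the median of all genes and 13 below it. Of 23, 1 was 2-fold higher, Loxl2, a lysyl oxidase that cross-links collagen IV among others (99.3 to 231 CPM, 1.21, 1.15 to 1.28), and the median was -0.02. The prolyl hydroxylase genes P4ha1 (238 to 372 CPM, 0.64) and P4ha2 (72.1 to 126 CPM, 0.81) were higher. The lysyl oxidase genes Lox (1717 to 1336 CPM, -0.36) and Loxl3 (163 to 132 CPM, -0.30) were lower. Of the proteases, 3 of 17 matrix metalloproteinase genes were 2-fold higher and 1 lower (median 0.57). Mmp9, a gelatinase, stood at 194 CPM in the PBS library, 528 in the irradiated PBS library, 426 in the BuOE library and 286 in the irradiated BuOE library (1.45, 1.41 to 1.49), and Mmp17 at 5.82, 19, 19.3 and 13.1 CPM (1.70, 1.46 to 1.96). Mmp15, a membrane-bound protease, was the lower one (204 to 97.3 CPM, -1.07, -1.13 to -1.01), and Mmp14, the main membrane-bound one of fibroblasts, had a ratio of -0.15 (-0.17 to -0.12). Of 10 ADAMTS genes 2 were higher, Adamts4 and Adamts9, and 1 lower, Adamts8 (median 0.56). Of 18 integrins 3 were 2-fold higher, Itga1 (17.5 to 57.3 CPM, 1.71), which binds collagen, Itgb8 (9.74 to 27.5 CPM, 1.49), which activates TGF-beta, and Itga11. The PBS library was lowest of the 4 in all 3.

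Some secreted inhibitors of Wnt signalling, most of them scarce, were higher in the irradiated PBS library. Wnt proteins act through frizzled receptors and beta-catenin, and SFRP, WIF and related proteins bind them outside the cell. Of 25 measured genes of this list, 5 were 2-fold higher and 2 lower (median 0.50; 0.03 relative to all genes where only genes with a mean of 10 CPM or more were kept). The 5 were Wif1, Frzb, Sfrp4, Sfrp2 and Dkk3, which are all secreted and of the inhibitor families, although the effect of Dkk3 on Wnt signals is disputed. Large ratios were common at such levels: of all genes with a mean of 3 to 10 CPM, 10.2% were 2-fold higher, and of those with 1 to 3 CPM, 15.4%. Frzb had a mean of 5.27 CPM and Sfrp4 of 2.99. Frzb stood at 2.72 CPM in the PBS library, 13.2 in the irradiated PBS library, 2.9 in the BuOE library and 2.22 in the irradiated BuOE library (2.25, 1.94 to 2.64), and Sfrp4 at 1.19, 5.75, 2.8 and 2.22 CPM (2.21, 1.75 to 2.83). In both the irradiated PBS library alone was high, at least 2-fold above the rest. Sfrp2 stood at 3.24, 7.64, 3.76 and 4.73 CPM (1.22, 0.90 to 1.59), whereas Wif1 (0.238 and 1.88 CPM) and Dkk3 (14.6 and 36.7 CPM, 1.32) were highest in the irradiated BuOE library. Genes that Wnt signals induce were split: Axin2, the feedback inhibitor, stood at 18.3 and 9.71 CPM (-0.91, -1.11 to -0.71), and Lgr5, a receptor of R-spondins, at 4.05 and 0.870 CPM (-2.14, -2.84 to -1.64), but Nkd1 (0.70), Notum (0.50) and Lef1 (0.19) lay above 0. The ligand gene Wnt2 was lower (25.4 to 12.5 CPM, -1.01) and Wnt5a, the ligand with the most reads, stood at 59.4 and 94.2 CPM (0.67, 0.58 to 0.75).

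Several BMP ligands were higher, and the Id genes that BMP signals induce were not. Of 22 genes, 7 were 2-fold higher and none lower (median 0.19), and all 7 encode ligands: Bmp5, Bmp3, Bmp4, Bmp7, Gdf6, Gdf10 and Bmp2. Bmp5 stood at 0.817 CPM in the PBS library, 6.43 in the irradiated PBS library, 2.47 in the BuOE library and 0.700 in the irradiated BuOE library (2.88, 2.37 to 3.65), and Gdf6 at 1.63, 4.8, 0.264 and 0.658 CPM (1.52, 1.08 to 2.05). For these 2 the irradiated PBS library stood 2-fold above all others. Bmp4 stood at 4.77, 17.2, 10.4 and 14.1 CPM (1.83, 1.58 to 2.12), and Bmp7 at 6.71, 19.6, 22.3 and 31.8 (1.54, 1.32 to 1.78). Id1, which BMP signals induce, stood at 94.4 and 67.9 CPM (-0.48, -0.56 to -0.40) and Id3 at 87 and 76.2 CPM (-0.19, -0.27 to -0.11), with Id2 at -0.04 and Id4 at 0.15. TGF-beta ligands, latency proteins and receptors had 1 member of 21 past 2-fold, the activin receptor gene Acvr2b (median 0.17), and Fst, follistatin, which binds activins, stood at 248 and 157 CPM (-0.66, -0.71 to -0.61).

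In the IGF system 3 of 12 genes were 2-fold higher and none lower (median 0.36). Igfbp3, the main carrier of IGF in blood, stood at 182 and 486 CPM (1.42, 1.37 to 1.46), and Pappa2, which cleaves IGF carriers, at 0.920 and 6.85 CPM (2.81, 2.32 to 3.53). The third was the carrier gene Igfbp5. Igf1 itself stood at 23 and 30.8 CPM (0.43, 0.29 to 0.57). In the Notch pathway 3 of 15 were 2-fold higher (median 0.47): Dll4, a ligand of endothelial tip cells (13.3 to 52.3 CPM, 1.97, 1.82 to 2.14), Mfng and Hey2, with the PBS library 2-fold below the other 3 in each. Of 24 immediate early genes and 17 YAP and TEAD targets none was 2-fold in either direction (medians -0.04 and 0.03).

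Genes of DNA damage and of cell division showed small differences. Of 35 p53 targets 1 was 2-fold higher, Trp53i11 (45.3 to 97.7 CPM, 1.11), and 1 lower, Gdf15, a secreted stress factor (median -0.01). Gdf15 stood at 10.4 CPM in the PBS library, 4.88 in the irradiated PBS library, 17 in the BuOE library and 33.2 in the irradiated BuOE library (-1.07, -1.36 to -0.81), so the irradiated PBS library was 2-fold below the rest. Of 44 genes of DNA damage signalling and repair none was 2-fold (median -0.04). Ercc1, an excision repair gene, was the lowest (53.6 to 37.8 CPM, -0.50, -0.61 to -0.40), and Rad51c the highest (2.93 to 3.85 CPM, 0.39, -0.01 to 0.80). Replication genes were lower almost throughout, with 2 of 40 above the median of all genes and none 2-fold (median -0.25), and mitosis genes likewise, with 4 of 40 above it (median -0.21). Foxm1, the transcription factor of the mitotic programme, stood at 97.9 CPM in the PBS library, 68.1 in the irradiated PBS library, 33.8 in the BuOE library and 22.7 in the irradiated BuOE library (-0.52, -0.60 to -0.44), and Uhrf1, which copies DNA methylation, at 149, 108, 51.5 and 37.2 CPM (-0.47, -0.53 to -0.41). The 2 PBS libraries were both well above the 2 BuOE libraries, by more than they differed from each other: mitosis genes summed to 3457 and 3076 CPM in the PBS and irradiated PBS libraries, and to 1317 and 969 in the BuOE libraries.

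Inflammatory genes did not move as 1 group. Of 26 chemokines 5 were 2-fold higher and 2 lower (median 0.30). Those that attract neutrophils ran from -0.09 for Cxcl1 to 1.45 for Cxcl5, with Cxcl2 at 0.59. Cxcl5 stood at 25.6 CPM in the PBS library, 70 in the irradiated PBS library, 14.3 in the BuOE library and 25.1 in the irradiated BuOE library (1.45, 1.33 to 1.57), and Cxcl3 at 14.2, 38, 22.9 and 25.9 CPM (1.41, 1.26 to 1.58). Cxcl13, which attracts B cells, was lower (6.2 to 0.309 CPM, -4.06, -5.36 to -3.45), and so was the interferon-induced Cxcl9 (2.52 to 0.786 CPM, -1.60, -2.36 to -1.04). Of the IL-1 family, Il1a and Il1b were 2-fold higher at low levels (3.3 to 8.08 and 1.91 to 4.52 CPM), Il33, an alarmin of stroma and epithelium, was lower (19.8 to 9.54 CPM, -1.04, -1.25 to -0.85), and so was the decoy receptor gene Il18bp (-1.36). Of 42 interferon-stimulated genes none was higher and 2 were lower, Mx1 and Cmpk2 (median -0.14). Mx1, an antiviral GTPase whose gene is defective in common laboratory strains, stood at 3.47 and 0.898 CPM (-1.88, -2.57 to -1.37). Of 18 genes of MHC class I presentation 17 lay below the median of all genes, none 2-fold (median -0.31): H2-K1 stood at 415 and 282 CPM (-0.56), with reads that paralogs can share, and Nlrc5, which drives these genes, at 18.9 and 11.9 CPM (-0.66, -0.85 to -0.48).

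Complement and acute phase genes held the lowest ratio of all, beside members that were higher. Of 26, 1 was 2-fold higher and 7 lower (median -0.31). Hp, haptoglobin, which binds free haemoglobin, stood at 365 CPM in the PBS library, 1.85 in the irradiated PBS library, 3 in the BuOE library and 4.16 in the irradiated BuOE library (-7.57, -7.99 to -7.27), so the PBS library alone was high. Pigr, the epithelial carrier of IgA, stood at 147, 17.3, 88.5 and 29.3 CPM (-3.08, -3.21 to -2.97), with the BuOE library near the PBS library. Some regulators of complement were higher, and one was lower, Cfi, the protease that cuts C3b and C4b (4.19 to 1.09 CPM, -1.87, -2.49 to -1.41). Serping1, the C1 inhibitor, stood at 69 and 135 CPM (0.97, 0.89 to 1.05), and Cd55 at 20 and 36.5 CPM (0.87, 0.73 to 1.02). Csf1, the macrophage growth factor, had one of the largest losses in reads, from 2781 to 1894 CPM (-0.55, -0.57 to -0.54), and stood at 831 CPM in the BuOE library. None of 22 macrophage markers was 2-fold in either direction (median -0.15). Cd163, a macrophage scavenger receptor outside that list and named after its values were seen, stood at 0.783 and 2.08 CPM (1.33, 0.72 to 2.15). None of 13 lymphocyte markers passed the filter.

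Fat cell genes were lower in the irradiated PBS library and, for the genes that define the cell type, high in the PBS library alone. Of 23 measured adipocyte genes none was 2-fold higher and 11 were lower (median -0.93), and in all 11 the PBS library was the highest of the 4. Adipoq, the hormone adiponectin, stood at 5.76 CPM in the PBS library and had 3 counts (0.0842 CPM) in the irradiated one (-5.27, -8.39 to -4.52), with no count in the BuOE library and 0.165 CPM in the irradiated BuOE library. Cfd, the protease adipsin, stood at 29.5, 0.337, 0.0330 and 1.73 CPM in the PBS, irradiated PBS, BuOE and irradiated BuOE libraries (-6.20, -7.41 to -5.64), and the lipid droplet gene Plin1 at 28.9, 0.926, 0.693 and 2.3 (-4.87, -5.51 to -4.46). These 3 genes were thus high in the PBS library alone. Genes that other cells share were lower by less: the fatty acid carrier gene Fabp4 stood at 208 and 61.1 CPM (-1.76, -1.84 to -1.69), Lpl, lipoprotein lipase, at 258 and 117 CPM (-1.15, -1.20 to -1.09), and Pparg, the regulator of the lineage, at 11.2 and 10.5 CPM (-0.09, -0.31 to 0.13). Hp and the desaturase gene Scd1, which adipocytes also express, were likewise highest in the PBS library; the part of adipocyte RNA in their ratios was not tested. Haemoglobin genes, a sign of red cells, were also lower, with reads that near-identical copies can share. Hbb-bs stood at 49.5, 3.71, 8.81 and 21.8 CPM in the PBS, irradiated PBS, BuOE and irradiated BuOE libraries, and Hba-a1 at 9.3, 0.786, 2.18 and 3.79. For both, the irradiated PBS library was at least 2-fold below each of the others.

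Sterol synthesis genes were lower together and the exporters that sterols induce were higher. Of 29 genes of the list 1, Abca1, was 2-fold higher and none lower (median -0.47), and 4 lay above the median of all genes. Those 4 were Abca1 (107 to 223 CPM, 1.06, 1.00 to 1.12) and Abcg1 (30.9 to 43.8 CPM, 0.50, 0.39 to 0.62), which export cholesterol, Mylip (0.34), a ubiquitin ligase that sterols induce, and Insig2 (0.55), which retains SREBP in the endoplasmic reticulum. On the other side was Mvd, an enzyme of the mevalonate pathway (19.8 to 10.8 CPM, -0.87, -1.06 to -0.68). The sterol element TCACNCCAC, searched on both strands, lay in 1 of 20 promoters of the list (5%) and in 0.989% of all, in Hmgcs1, the synthase at the head of the pathway, shown because it is that single match (plus strand, chr13:119690101-119690350, GRCm38.p6, element in capitals 137 bases before the start).
Hmgcs1: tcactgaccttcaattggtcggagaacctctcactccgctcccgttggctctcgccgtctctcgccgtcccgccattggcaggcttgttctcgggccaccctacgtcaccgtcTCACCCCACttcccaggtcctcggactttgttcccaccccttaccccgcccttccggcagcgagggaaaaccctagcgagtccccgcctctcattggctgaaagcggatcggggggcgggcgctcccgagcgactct
Hmgcs1 itself stood at 165 CPM in the PBS library, 119 in the irradiated PBS library, 134 in the BuOE library and 85.2 in the irradiated BuOE library (-0.47, -0.53 to -0.41). Of 20 genes of fatty acid synthesis 1, Scd1, was 2-fold lower (median -0.20), and Fasn, the synthase, stood at 647 and 401 CPM (-0.69, -0.72 to -0.66).

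Genes of the NRF2 response, which detoxifies oxidants and electrophiles through glutathione and thioredoxin, lay below the median of all genes in 33 of 38 cases, with 4 members 2-fold lower and none higher (median -0.32). The 4 were Srxn1, which repairs oxidized peroxiredoxins (609.7 to 293 CPM, -1.06, -1.09 to -1.02), and the glutathione transferase genes Gsta4 (179 to 78.2 CPM, -1.19), Gsta1 and Gsta2; reads of the last 2 can be shared between them. Of the thioredoxin branch, Prdx1 stood at 1659 CPM in the PBS library, 977 in the irradiated PBS library, 941 in the BuOE library and 1103 in the irradiated BuOE library (-0.76, -0.78 to -0.74), and Txnrd1, thioredoxin reductase, at 1225, 868, 619 and 838 CPM (-0.50, -0.52 to -0.48). The cystine importer gene Slc7a11 stood at 303 and 168 CPM (-0.85, -0.90 to -0.80). For Srxn1, Prdx1 and Txnrd1 the PBS library was above each of the other 3. The antioxidant element TGACNNNGC, on either strand, lay in 18.8% of 32 promoters of the list and in 12.1% of all. Of the genes that make nitric oxide, all 3 synthases were 2-fold higher, Nos2, the inducible one, at 2.35 and 10.1 CPM (2.07, 1.73 to 2.49).

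Epithelial genes were not uniform. Fibroblast markers had a median of 0.22 with 1 of 19 past 2-fold (Thy1, 16.9 to 40.5 CPM, 1.26), and the fibroblast genes were present in both libraries as labelled, together with keratins. Of 32 luminal markers 1 was lower, the transcription factor gene Ehf (109 to 51.3 CPM, -1.09), and none higher (median -0.11). Of 22 basal markers 3 were lower and 1 higher (median -0.05): Krt5, the basal keratin, stood at 262 CPM in the PBS library, 115 in the irradiated PBS library, 388 in the BuOE library and 278 in the irradiated BuOE library (-1.19, -1.25 to -1.14), which left the irradiated PBS library 2-fold below the rest. Its partner Krt14 stood at 237 and 129 CPM (-0.88, -0.93 to -0.83) and the stress keratin Krt6a at 127 and 41.8 CPM (-1.60, -1.69 to -1.51), while Trp63, the regulator of basal identity, stood at 23.6 and 29.4 CPM (0.31, 0.18 to 0.46). Sprr1a, a cornified envelope gene, was the higher one (36.2 to 111 CPM, 1.62). Secretory genes of the gland were higher in 12 of 25 cases and lower in 2 (median 0.76). Svs2, the seminal vesicle clotting protein, stood at 48.1 CPM in the PBS library, 286 in the irradiated PBS library, 214 in the BuOE library and 467 in the irradiated BuOE library (2.57, 2.49 to 2.65), and Pbsn, probasin, an androgen-driven product of the prostate, at 2.69, 9.46, 7.26 and 50.7 CPM (1.79, 1.46 to 2.19). Sbp, the member with the most reads, went the other way (757 to 439 CPM, -0.79), and the PBS library was 2-fold beyond the other 3 in 10 of these genes. Pgr, the progesterone receptor of stroma, stood at 1.43 and 10.9 CPM (2.87, 2.46 to 3.42).

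The 38 higher and 17 lower genes in which the irradiated PBS library itself stood 2-fold beyond the other 3 are those that no other library resembles. Beside Frzb, Sfrp4, Bmp5, Gdf6, Thbs4 and Cxcl5 (above), the higher ones included Tbx20, a transcription factor of heart and cranial motor neurons, at 0.545 CPM in the PBS library, 12 in the irradiated PBS library, 1.58 in the BuOE library and 0.0412 in the irradiated BuOE library (4.30, 3.75 to 5.28). Trpa1, the irritant-gated ion channel, stood at 0.886, 8.06, 1.19 and 0.576 CPM in that order (3.09, 2.60 to 3.82), Tslp, an epithelial cytokine of allergic inflammation, at 2.32, 7.38, 2.11 and 2.35 (1.64, 1.28 to 2.08), and Spon2, a secreted matrix protein of the spondin family, at 34.9, 82.2, 37 and 32.5 (1.23, 1.13 to 1.34). The skeletal muscle list gave 3 of them. Myog, myogenin, stood at 1.16 and 3.37 CPM with no count in either BuOE library, the embryonic myosin gene Myh3 at 1.09 and 2.78 CPM, and Neb, nebulin, at 3.54 and 7.92 CPM (1.15, 0.83 to 1.5). The imprinted RNA H19 stood at 22.2 and 44.7 CPM (1.01, 0.88 to 1.14). These genes were mostly scarce: 3 of the 38 had a mean of 10 CPM or more. As the filter was a mean over the 4 libraries, a scarce gene could pass it through the irradiated PBS library. Myh3 passed with a mean of 1.00 CPM and Myog with 1.13, and 14 of the 24 skeletal muscle genes did not pass. A gene low in that library alone has no such help, so the 38 and the 17 were not selected alike.

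By the amount of reads that moved, the 15 genes with the largest gains took 19.4% of all gains in CPM and the 15 with the largest losses 14.1% of all losses. Of these gains 6 were 2-fold, and of the losses 2. Fn1, fibronectin, had the largest gain, from 3182 to 5576 CPM (0.81, 0.80 to 0.82). Spp1, osteopontin, a secreted matrix phosphoprotein, went from 1949 to 3026 CPM (0.63, 0.62 to 0.65) and stood at 1536 in the BuOE library, so the irradiated PBS library was the highest. Actb, cytoplasmic actin, had the largest loss, from 10339.9 to 8877 CPM (-0.22, -0.23 to -0.21), and Vim, vimentin, went from 2551 to 2073 CPM (-0.30, -0.31 to -0.28), Flna, filamin, from 4146 to 3604 CPM (-0.20), Pdpn, podoplanin, from 1194 to 767 CPM (-0.64, -0.66 to -0.62), and Tnc, the matrix protein tenascin C, from 2757 to 2325 CPM (-0.25, -0.26 to -0.23).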

How the data were processed

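The data are raw counts of reads per gene in 1 deposited table with a column for each library. The submitters' processing notes list featureCounts, Trim Galore 0.6.4, FastQC, Salmon 1.4.0 and edgeR 4.2.2, with no role stated, and GRCm39 as the build. The handling of strand and of multiply mapped reads is not stated there. Groups were taken from the labels' treatment. Symbols came from GENCODE M21, which lacked 4675 of 56748 IDs, and promoters (250 bases before the start) from RefSeq on GRCm38.p6, used for letters only. Counts were scaled with TMM factors over all 4 libraries (edgeR 4.0.16, R 4.3.3), which were 0.987 for PBS and 0.992 for irradiated PBS. Genes with a mean of 1 CPM were kept, the prior count was 2, and the intervals are 95% exact binomial. The ratio and its interval were tested on simulated counts with counting error alone, which hold no spread between cultures. The members and gene lists were chosen with earlier results of these data known. Of the lists, 75 were described or computed. Genes named follow a rule: the 25 highest and 25 lowest ratios at 10 CPM or more, the 15 largest gains and losses in CPM, the 10 highest and lowest at 100 CPM or more, and of each list described the 2 members with the most counts and the 3 highest and 3 lowest; those beyond it, such as Ddc, Slc6a2, Pecam1, Kdr and the genes in which the irradiated library stood apart, were chosen after their values were seen. Alternatives were DESeq2 1.42.0 size factors, library size, upper-quartile factors, TMM on the 2 libraries, other filters and prior counts, and a call by the interval. Some genes that this rule names are not reported.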

Additional observations from a re-analysis of the deposited data

Results flagged for a closer look

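Lists whose median lay at least 0.5 on the log2 scale one way between the PBS libraries and at least 0.5 the other way between the BuOE libraries, which share no library with them, were singled out. With 1 library a side the difference between the arms was not tested. Pan-neuronal genes had a median log2 ratio of irradiated to unirradiated of 1.73 between the PBS libraries and -3.09 between the BuOE libraries. Autonomic transmitter genes had 2.57 and -2.64 (the first was 0.00 relative to all genes among members with a mean of 10 CPM or more), neuronal ion channels 0.92 and -0.67, and Schwann cell and glial markers 1.07 and -0.61. Pericyte and mural markers had 1.08 and -0.65. Erythroid genes, with 3 measured, had -3.64 and 1.30. For pan-neuronal genes, the summed level was 781 CPM in the PBS library, 1005 in the irradiated PBS library, 1684 in the BuOE library and 598 in the irradiated BuOE library, so neither arm's irradiated library was the highest of the 4.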

How the results depend on the processing

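No paired analysis was possible because each group holds 1 library, and for the same reason no library could be left out. Other scalings (DESeq2 size factors, library size, upper-quartile factors, TMM on the 2 libraries) gave 765 to 813 higher and 139 to 150 lower genes, and prior counts of 0.5 and 5 gave 832 and 763 higher. Without a filter beyond a count in either library, 2330 genes were higher and 1404 lower; at a mean of 10 CPM, 245 and 43; and with the counting interval required past 2-fold, 475 and 76. At 10 CPM the PBS library lay 2-fold beyond the other 3 in 154 higher and 13 lower genes, the irradiated one in 3 and 3. Without the genes of the cell type lists (added after seeing the data, as were the alternatives for the place of the libraries), 674 were higher and 121 lower. Of 570 genes with alternatives for scaling and prior, 9 took the other sign in some setting, all with a size of 0.03 or less, and 6 of 182 dropped under 2-fold (Col20a1, Derl3, Shh, Slc40a1, Svs3a and mt-Co2). Of 74 lists, 14 took the other sign in some setting, 2 of them with a size of 0.3 or more. At 10 CPM the autonomic median was 0.00 rather than 2.57, and that of the Hedgehog pathway -0.02 rather than 0.51, each relative to all genes. Depth limited the scarce genes: Th rests on no count in the PBS library against 250 in the irradiated one.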
